A study of Mus musculus with 12 samples.

Results

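The 47 genes described here are cell cycle and DNA replication genes, measured in CT26 cells, a mouse colon carcinoma cell line. They were chosen by name, from what their products are known to do, as a readout of whether 8 hours of IFN-γ or CX3CL1 changed the expression of proliferation genes. All 47 were found among the 23636 gene symbols of the expression table, which writes mouse symbols in capitals, and all 47 passed the filter on low values. By role they were 9 genes of replication licensing and the fork, 4 of nucleotide supply, 7 cyclins and kinases of G1 and S phase, 3 transcription factors, 8 cyclins and kinases of G2 phase and mitosis, 4 of the spindle checkpoint and its ubiquitin ligase, 11 of chromosomes, centromeres and the spindle, and 1 inhibitor of cyclin-dependent kinases.

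A dividing cell copies its DNA in S phase and separates the copies in mitosis, and cyclin-dependent kinases drive both steps. Genes for replication are transcribed mainly around the entry into S phase, where E2F factors act on them, and genes for mitosis mainly in G2 phase, where MYBL2 and FOXM1 act with the DREAM-related MuvB complex. In a culture that is not synchronized, the level of such a gene reflects both the share of cells in its phase and the RNA per cell in that phase, and in bulk RNA these cannot be told apart. IFN-γ is a cytokine known to slow the division of many cell types, while CX3CL1 is the chemokine that binds the receptor CX3CR1.

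RNA sequencing covered 4 groups of 3 biological replicates, which gave 12 libraries of the unmodified cell line. The groups were no treatment, CX3CL1 at 2 µg/ml, IFN-γ at 100 ng/ml, and both agents (CX3CL1+IFN-γ), with 8 hours given in a figure legend of the study. The study's text instead describes IFN-γ and TNF-α followed by CX3CL1, so the order of the agents is not settled. The sample labels name no TNF-α. The labels number the replicates 1 to 3 in every group, and p-values measure the spread between these libraries, since neither the labels nor the methods say whether the replicates were separate cultures. The values are TPM, transcript levels per length scaled to 1000000 in each library, so they are shares of a fixed total and the read depth behind them is unknown.

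The treatments were visible in genes outside the list. IRF1, an interferon response factor, was 4.94-fold higher after IFN-γ (adjusted p = 0.000152), and CXCL1, a chemokine gene, was 72.1-fold higher after CX3CL1 (adjusted p = 6.87e-06), both by limma on log2(TPM + 1). CXCL1 was also 9.31-fold higher after IFN-γ alone (adjusted p = 0.000121). Of 7 epithelial markers only KRT18 (18.4 to 53.6 TPM) passed the filter, EPCAM was listed at 0 in all 12 libraries, and KRT18 was 0.68 times as high with IFN-γ averaged over both comparisons (adjusted p = 0.00919). COL1A1, a fibroblast gene, was lower with IFN-γ (0.656 times, adjusted p = 0.0137) and with CX3CL1 (0.645 times, adjusted p = 0.0425) on average, at 25.1 to 84.7 TPM over the libraries. Whether these shifts bear on the cell cycle genes was not tested. Of the endothelial and fibroblast markers listed with COL1A1, PDGFRB passed the filter (3.47 to 9.82 TPM) and was not called in either average. PECAM1 and CDH5 were at most 0.0468 and 0.0203 TPM. Of the leukocyte markers reported here, LYZ2 passed the filter (0.097 to 1.86 TPM), CD3E was listed at 0 in all libraries, and PTPRC and ITGAM were at most 0.0441 and 0.134 TPM.

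In untreated cells the 47 genes together made up 0.886% to 0.906% of all TPM, against 0.752% to 0.907% over the 12 libraries, where the lowest value belonged to CX3CL1+IFN-γ replicate 1. The highest levels were those of UBE2C, the ubiquitin-conjugating enzyme of the anaphase-promoting complex (937 ± 103 TPM, SD, n = 3), PCNA, the sliding clamp of the replication fork (883 ± 75.8 TPM), and CDK4, the kinase that pairs with D-type cyclins (865 ± 80.3 TPM). These 3 lay within 1 SD of each other, and CCND1, which encodes cyclin D1, followed below them at 603 ± 32.6 TPM. At the other end were CDC6, a loader of the replicative helicase, at 19.2 TPM and the phosphatase gene CDC25A at 36.8 TPM. CDC25A hardly differed from TYMS, the gene for thymidylate synthase, at 36.9 TPM. MKI67, which encodes the proliferation marker Ki-67, stood at 77.8 ± 5.87 TPM. Over the 12 libraries the highest value of a gene was between 1.15 times (CDC25A) and 2.68 times (CCNB2) its lowest.

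Promoters of some of the genes are shown, with matches to short motifs of known cell cycle elements. RefSeq start sites on GRCm38.p6 gave a window of 300 bases, 250 before the start and 50 after, for 38 of the 47 genes (40 windows). FOXM1, which rose with IFN-γ as described below, was among the genes without a window, so its promoter was not searched. The 150 bases before each start follow, 5′ to 3′ on the gene's strand, with capitals at matches on either strand to an E2F motif, to the cell cycle homology region CHR (TTTGAA) or to the CCAAT box. The E2F motif was searched as the letters TTCCCGC, as the variant TTGGCGC, as the further form TTGCCGC and as the last form TTCGCGC. MCM7 and MYBL2 rose with IFN-γ, CCNB2 had the lowest averaged IFN-γ estimate, and CDC20 and MKI67 are shown as mitotic genes with a CHR near the start. MCM7 has starts at 2 positions, the stretches chr5:138171884-138172033 and chr5:138171267-138171416 on the minus strand. The others are MYBL2 (chr2:163054485-163054634, plus strand), CCNB2 (chr9:70421555-70421704, minus strand), CDC20 (chr4:118437344-118437493, minus strand) and MKI67 (chr7:135716380-135716529, minus strand).
MCM7, start upstream: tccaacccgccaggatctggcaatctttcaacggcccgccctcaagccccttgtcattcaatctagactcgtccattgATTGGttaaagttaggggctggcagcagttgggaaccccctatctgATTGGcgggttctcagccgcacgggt
MCM7, start downstream: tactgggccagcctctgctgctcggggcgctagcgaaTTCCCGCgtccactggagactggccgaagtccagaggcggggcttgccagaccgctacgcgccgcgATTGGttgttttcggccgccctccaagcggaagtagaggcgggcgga
MYBL2: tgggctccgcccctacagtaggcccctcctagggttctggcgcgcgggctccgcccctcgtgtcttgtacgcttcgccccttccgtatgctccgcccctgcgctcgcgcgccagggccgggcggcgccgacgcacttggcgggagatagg
CCNB2: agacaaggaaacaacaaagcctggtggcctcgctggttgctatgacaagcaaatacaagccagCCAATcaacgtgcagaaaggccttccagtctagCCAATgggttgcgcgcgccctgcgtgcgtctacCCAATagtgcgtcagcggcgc
CDC20: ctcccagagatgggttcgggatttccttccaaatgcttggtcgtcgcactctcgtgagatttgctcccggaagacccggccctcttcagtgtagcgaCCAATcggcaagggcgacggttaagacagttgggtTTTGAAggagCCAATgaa
MKI67: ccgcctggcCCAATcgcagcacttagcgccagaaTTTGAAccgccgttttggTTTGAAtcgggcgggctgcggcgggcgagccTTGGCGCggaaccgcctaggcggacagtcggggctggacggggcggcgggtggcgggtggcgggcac

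An E2F motif was present in 14 of the 40 windows (35%), against 16.9% of the 11802 windows of the genes tested and 9.57% of all 32851 windows. CHR was present in 35% as well, against 12.1% of the windows of genes tested and 17.9% of all. CCAAT was present in 67.5%, against 38.3% and 37.4%. In contrast the gamma-activated site GAS (TTCNNNGAA), searched on both strands, was present in 1 window, that of MCM5 (2.5%, against 6.94% and 8.3%). A GAS match reads the same on both strands. The letters of the motifs can overlap by a few bases, and each motif was searched on its own. The 3 transcription factors, FOXM1 and MYBL2 among them, were counted with the genes of G1 and S phase. In that set 11 of 20 windows (55%) held an E2F motif and 1 (MCM2) a CHR. Of the 14 windows with a CHR, 13 were among the 18 windows of genes of G2 phase and mitosis. Windows were found for 18 of 23 of those genes and for 19 of 23 of G1 and S phase, so neither count covers its whole set. The 150 bases of MYBL2 held no match to the letters searched, and the CHR match of CCNB2 lay in its window outside the printed stretch. Near its end the MYBL2 stretch reads ttggcgg, which differs from the searched form TTGGCGC in the last letter. Only a few exact E2F forms were searched, so a missing match does not mean that an E2F site is absent. A match describes letters and is not evidence that a factor binds there.

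**Figure D1:**
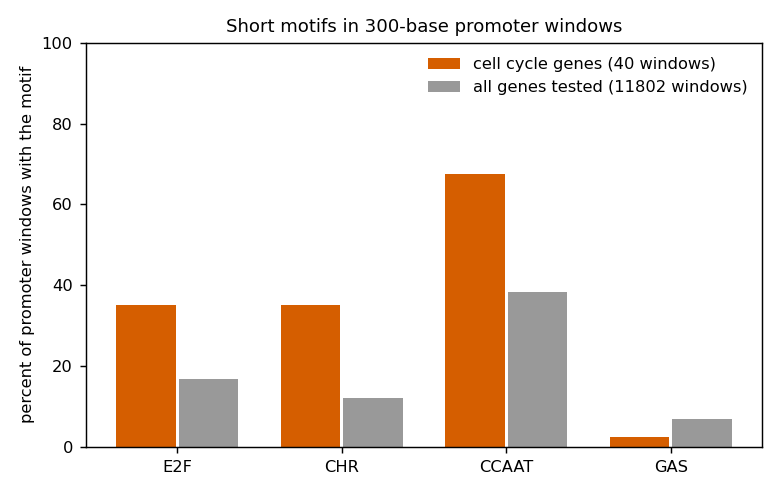
Percent of 300-base promoter windows that hold each motif on either strand (y axis), for the cell cycle genes (orange, 40 windows) and for all genes tested (grey, 11802 windows). E2F, CHR and CCAAT stand at 35%, 35% and 67.5% of the windows of the cell cycle genes, and GAS at 2.5%.

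The effect of IFN-γ was averaged over its 2 comparisons, IFN-γ against no treatment and CX3CL1+IFN-γ against CX3CL1. By limma without a block, 3 of the 47 genes were higher and none was lower at an adjusted p under 0.05. These were FOXM1 and MYBL2, 2 transcription factors of G2 phase genes, and MCM7, a subunit of the replicative helicase. The increases were small, between 1.17-fold and 1.26-fold. With the replicate number as a block, as described below, more genes were called, CCNB2 and RRM1 among them as lower. Without the block, 17.3% of all 11878 genes tested were called and 12.3% were called higher. The 3 genes (6.38%) were thus a smaller share than among all genes. The median log2 change was -0.01 for the 47 genes and 0.04 for all genes. Without adjustment, 10 of the 47 and 3718 of all 11878 genes had a p under 0.05. The 95% interval of the change lay within a factor of 2 in either direction for all 47, and for 11345 of all 11878 genes.

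FOXM1 was at 115, 127 and 117 TPM in untreated replicates 1 to 3, and CX3CL1 alone gave 109, 107 and 105 TPM. It was at 126, 162 and 162 TPM with IFN-γ and at 123, 141 and 145 TPM with CX3CL1+IFN-γ. With IFN-γ, replicates 2 and 3 stood above every library without it, and the replicate 1 libraries lay beside untreated replicate 2. FOXM1 was higher with IFN-γ in 6 of 6 same-numbered pairs, by 0.33 ± 0.08 on the log2 scale (SE, adjusted p = 0.010). The call held in 12 of 12 fits that each left out 1 library, with values from 0.30 to 0.39. In the separate comparisons the log2 change was 0.32 against no treatment and 0.35 against CX3CL1, neither called (adjusted p = 0.102 and 0.0979), and with the replicate number as a block both were called (adjusted p = 0.0367 for the first, over all alternatives 0.0268 to 0.702).

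MYBL2, the B-Myb gene, was at 52.8, 69.7 and 56.9 TPM in untreated cells and at 57.3, 56.1 and 56.4 TPM with CX3CL1. With IFN-γ it was at 77.7, 70.0 and 71.4 TPM, and with CX3CL1+IFN-γ at 68.1, 63.1 and 64.2 TPM. In both comparisons the libraries with IFN-γ all lay above those without. The averaged increase was 0.25 ± 0.07 on the log2 scale (adjusted p = 0.0344), in 6 of 6 pairs. MCM7 was at 208, 261 and 224 TPM in untreated cells and CX3CL1 alone gave 207, 229 and 203 TPM. It was at 279, 268 and 255 TPM with IFN-γ and at 258, 254 and 237 TPM with CX3CL1+IFN-γ. Untreated replicate 2 was thus inside the range of the IFN-γ libraries, while the CX3CL1 and CX3CL1+IFN-γ libraries did not overlap. The averaged increase was 0.22 ± 0.07 (adjusted p = 0.0441), in 6 of 6 pairs. The 2 calls were less firm than that of FOXM1: leaving out single libraries, MYBL2 was called in 3 of 12 fits (0.20 to 0.30) and MCM7 in 2 of 12 (0.19 to 0.27), and each was kept only where a replicate 2 library without IFN-γ was left out, or for MYBL2 also CX3CL1+IFN-γ replicate 2. Median-ratio scaling and quantile normalization also ended both calls.

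**Figure D2:**
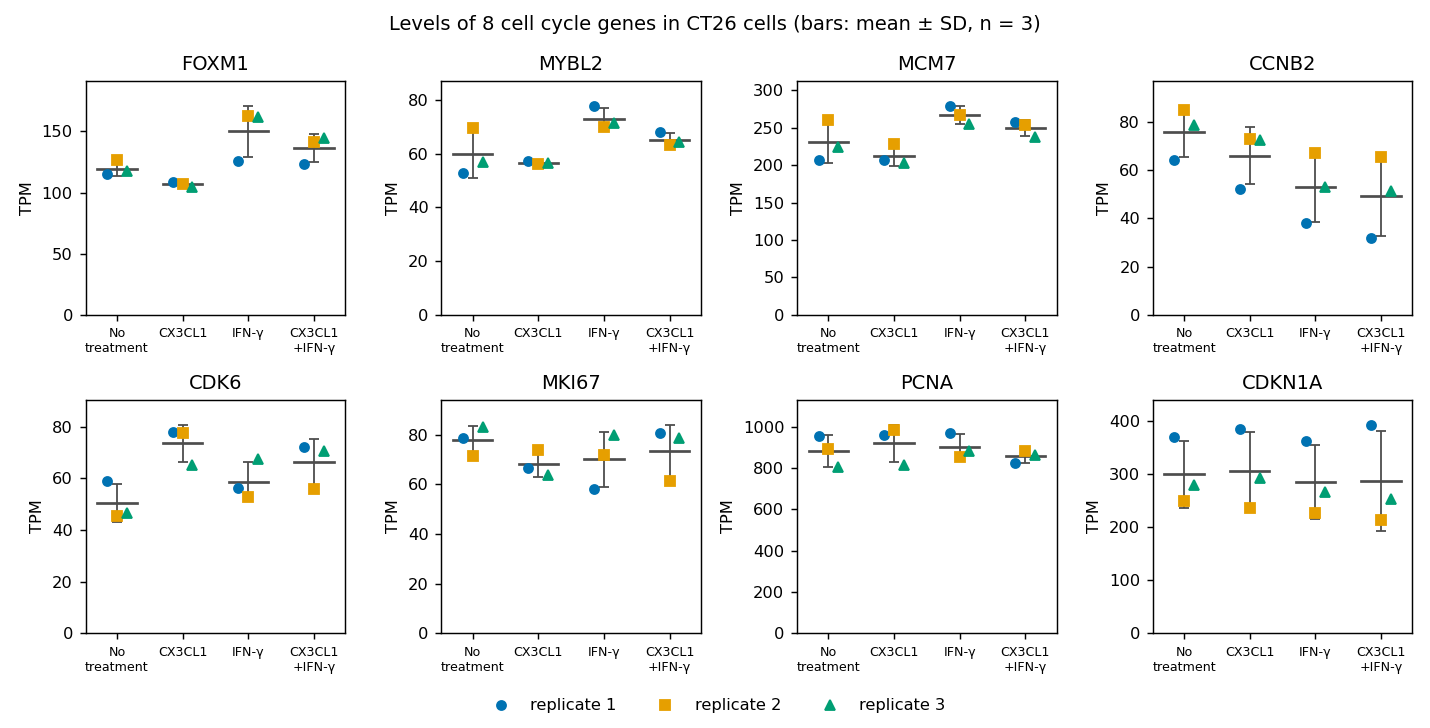
TPM (y axis, from 0) of 8 cell cycle genes in the 12 libraries, by group, with the replicate number as colour and symbol, a line at the mean and bars of 1 SD (n = 3). FOXM1, MYBL2 and MCM7 sit higher in the IFN-γ groups, and CDKN1A is highest in replicate 1 of every group (361 to 392 TPM).

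The other genes of replication licensing and the fork gave no call without a block, with averaged log2 changes between -0.07 (MCM4) and 0.24 (CDT1). CDT1 loads the helicase with CDC6. It was at 78.5, 102 and 76.6 TPM in untreated cells against 113, 110 and 99.6 TPM with IFN-γ, and at 87.2, 75.3 and 86.5 TPM with CX3CL1 against 85.7, 101 and 89.8 TPM with CX3CL1+IFN-γ (averaged 0.24, adjusted p = 0.0662). With the replicate number as a block CDT1 was called higher. MCM2, another helicase subunit, was at 146, 174 and 151 TPM in untreated cells and at 183, 171 and 160 TPM with IFN-γ, which overlapped. PCNA was at 954, 891 and 803 TPM untreated and at 970, 852 and 882 TPM with IFN-γ, and its averaged log2 change had a 95% interval from -0.20 to 0.13.

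None of the 4 genes of nucleotide supply was called without a block. RRM1, the large subunit of ribonucleotide reductase, was at 231, 232 and 234 TPM in untreated cells and at 179, 214 and 202 TPM with IFN-γ, without overlap. With CX3CL1 it was at 214, 269 and 201 TPM and with CX3CL1+IFN-γ at 174, 217 and 210 TPM, which overlapped, and the averaged change was -0.21 (adjusted p = 0.122). With the replicate number as a block RRM1 was called lower (adjusted p = 0.0444 by limma). RRM2, the small subunit, was at 456, 451 and 408 TPM untreated and at 399, 413 and 409 TPM with IFN-γ. Its averaged change of -0.08 had an interval from -0.26 to 0.10.

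The 7 cyclins and kinases of G1 and S phase gave no call either, with 4 positive and 3 negative averaged changes. CCND1 was at 619, 625 and 566 TPM untreated, at 554, 650 and 569 TPM with CX3CL1, at 501, 600 and 576 TPM with IFN-γ and at 410, 560 and 508 TPM with both agents (averaged IFN-γ change -0.19, adjusted p = 0.156). The 2 genes for E-type cyclins, which activate CDK2 at the entry into S phase, had estimates of opposite sign. CCNE1 was at 72.4, 79.1 and 72.1 TPM untreated and at 80.6, 81.9 and 82.1 TPM with IFN-γ, and CCNE2 was at 82.8, 64.0 and 73.8 TPM untreated and at 53.9, 46.96 and 46.8 TPM with IFN-γ. Both pairs of groups were apart, and the log2 changes of 0.13 and -0.57 were not called (adjusted p = 0.391 and 0.145). For CCNE2 the libraries treated with CX3CL1 were spread from 49.5 to 105 TPM, and without CX3CL1 replicate 2, which held the 105 TPM, CCNE2 was called lower with IFN-γ at the same change. E2F1, a factor of the G1 to S transition, was at 47.4, 57.6 and 48.3 TPM untreated and at 60.4, 50.3 and 44.2 TPM with IFN-γ, an averaged estimate of 0.08 with an interval from -0.17 to 0.33.

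Among the 8 cyclins and kinases of G2 phase and mitosis, CCNB2, the gene for cyclin B2, had the lowest averaged IFN-γ estimate of all 47 genes. It was at 64.1, 84.6 and 78.8 TPM in untreated cells and at 38.2, 67.0 and 53.1 TPM with IFN-γ. With CX3CL1 it was at 52.2, 72.6 and 72.6 TPM and with CX3CL1+IFN-γ at 31.6, 65.2 and 51.2 TPM. In every group replicate 1 was the lowest library, the groups overlapped, and within each of 6 same-numbered pairs the library with IFN-γ was the lower one. The averaged log2 change of -0.50 ± 0.18 was not called without a block (adjusted p = 0.0739), and with the replicate number as a block it was (-0.50 ± 0.08, adjusted p = 0.00118, over all alternatives 0.00118 to 0.374). It was also called without CX3CL1 replicate 1 (-0.58), IFN-γ replicate 2 (-0.59) or CX3CL1+IFN-γ replicate 2 (-0.61).

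With that block, which the correlations between same-numbered libraries allow for the IFN-γ comparisons, 7 of the 47 genes were called for the averaged IFN-γ effect, against 29.0% of all genes. MYBL2, FOXM1, MCM7, CDT1 and AURKA, the Aurora A kinase gene, were higher, and CCNB2 and RRM1 were lower. AURKA was at 163, 161 and 180 TPM untreated and at 173, 203 and 202 TPM with IFN-γ, at 147, 151 and 162 TPM with CX3CL1 and at 156, 188 and 194 TPM with both, an averaged change of 0.21. In the separate comparisons the block gave 2 calls each, FOXM1 higher and CCNB2 lower, against 16.2% of all genes for IFN-γ against no treatment and 11.5% for CX3CL1+IFN-γ against CX3CL1.

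CCNB1, the gene for cyclin B1, was at 229, 211 and 217 TPM untreated and at 148, 208 and 206 TPM with IFN-γ, all below. With CX3CL1+IFN-γ it was at 125, 225 and 213 TPM against 195, 243 and 208 TPM with CX3CL1, which overlapped, and the averaged change was -0.24 with an interval from -0.54 to 0.07. The averaged estimates were -0.11 (-0.31 to 0.08) for CDK1, the kinase of both B cyclins, 0.06 (-0.12 to 0.23) for AURKB and 0.17 (-0.03 to 0.36) for PLK1, 2 further mitotic kinase genes, none of them called.

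None of the 4 genes of the spindle checkpoint and ubiquitin ligase and none of the 11 genes of chromosomes, centromeres and the spindle was called with IFN-γ. CDC20, the activator of the anaphase-promoting complex, was at 237, 276 and 253 TPM untreated, at 190, 285 and 239 TPM with IFN-γ and at 134, 261 and 223 TPM with CX3CL1+IFN-γ. MKI67 was at 78.7, 71.6 and 83.2 TPM untreated, at 58.2, 72.01 and 80.1 TPM with IFN-γ, at 66.5, 73.8 and 63.9 TPM with CX3CL1 and at 80.6, 61.3 and 78.6 TPM with both. TOP2A, topoisomerase II alpha, was at 345, 292 and 323 TPM untreated and at 278, 314 and 381 TPM with IFN-γ. For each of these 3 genes the groups overlapped, and the averaged log2 changes were -0.16 (-0.50 to 0.18), -0.03 (-0.23 to 0.18) and 0.07 (-0.15 to 0.29).

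**Figure D3:**
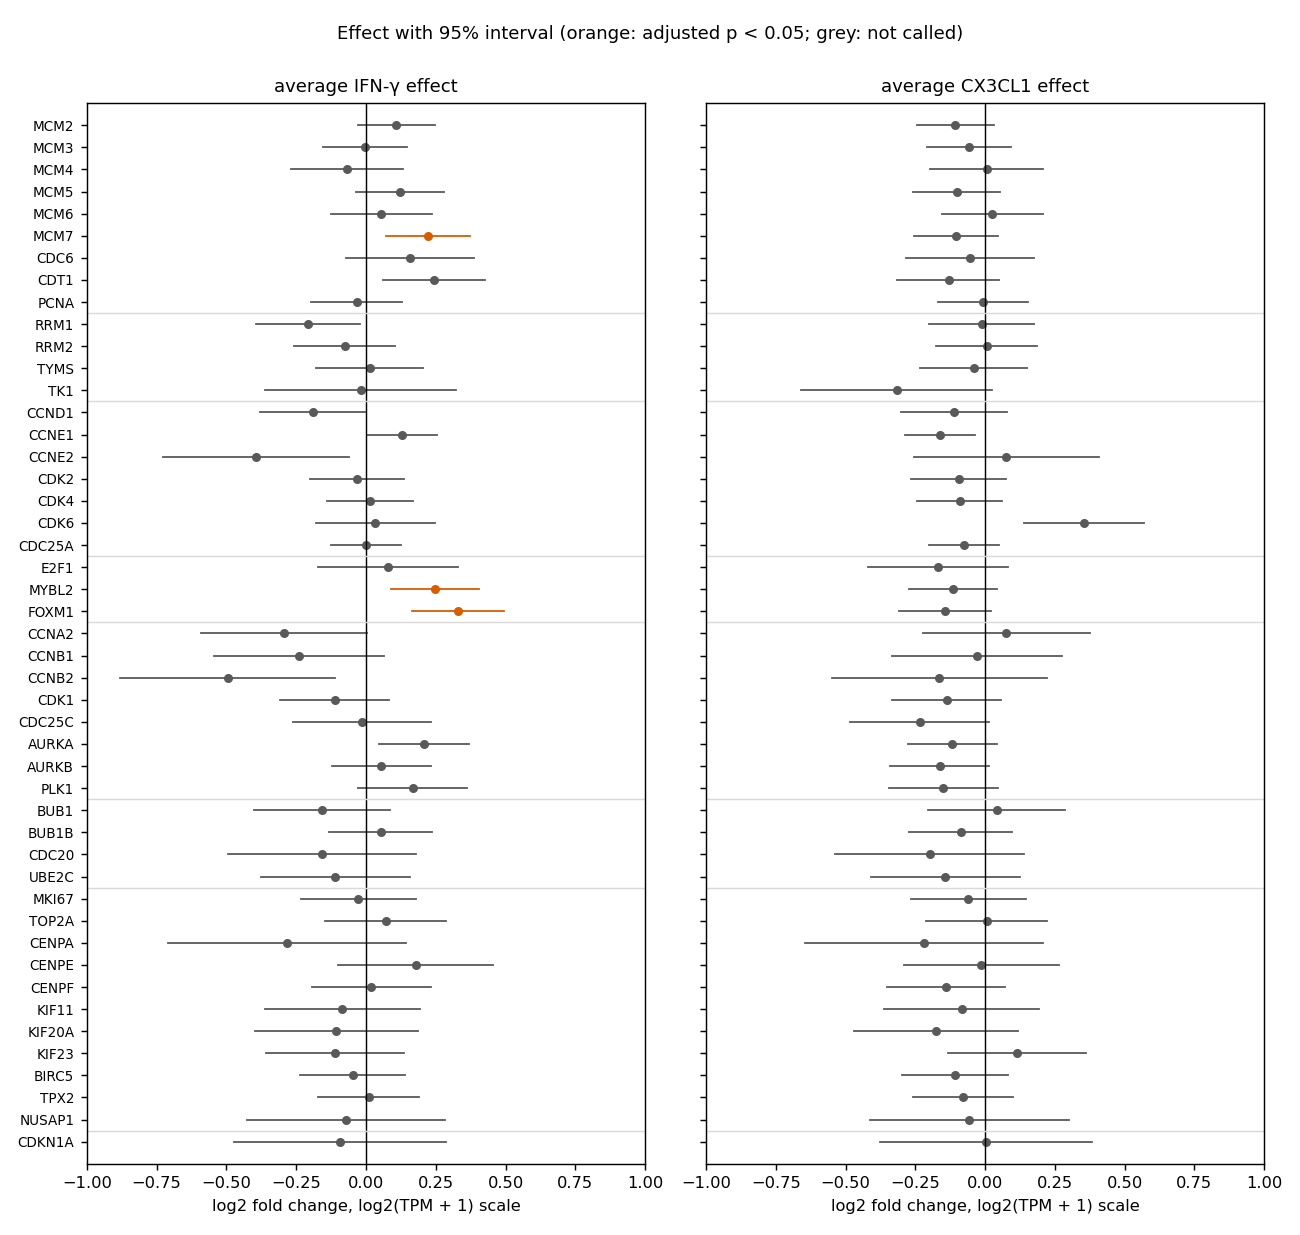
Log2 fold change of each of the 47 genes on the log2(TPM + 1) scale (x axis) with its 95% interval, averaged over both IFN-γ comparisons (left) and both CX3CL1 comparisons (right), with grey lines between roles. The 3 genes in orange (MCM7, MYBL2, FOXM1) had an adjusted p under 0.05 in the fit without a block, and every interval lies between -1 and 1.

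In the separate comparisons limma without a block called none of the 47 genes. For IFN-γ against no treatment 7.85% of all genes were called, and 5 of the 47, against 2611 of all 11878 genes, had an unadjusted p under 0.05. For CX3CL1+IFN-γ against CX3CL1 4.7% were called, and 3 of the 47, against 2103 of all 11878 genes, had an unadjusted p under 0.05. The median log2 changes of the 47 genes were -0.03 and 0.00, against 0.03 and 0.05 for all genes. The interval lay within a factor of 2 for 45 of 47 genes in the first comparison, with CCNB2 and CCNE2 as the exceptions, and for 47 of 47 in the second. Of all 11878 genes, 11015 and 11185 had such an interval. Single libraries moved the first count: without untreated replicate 2 it was 2 (CDT1 and MYBL2), without IFN-γ replicate 1 it was 1 (FOXM1), and without CX3CL1 replicate 2 it was 1 (CCNE2).

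Without a block CX3CL1 gave no call among the 47 genes by limma, while 1.95% of all genes were called against no treatment, 0.362% for CX3CL1+IFN-γ against IFN-γ and 2.54% on average. At an unadjusted p under 0.05 there were 1, 0 and 2 of the 47, against 958, 517 and 1309 of all 11878 genes. Most estimates were below 0: 42 of 47 against no treatment and 37 of 47 on average, compared with 6559 and 6447 of all 11878 genes. The median log2 changes of the 47 were -0.11 and -0.09, against -0.02 and -0.01 for all genes. The 47 estimates come from the same libraries, so they are not independent and the sign counts carry no test. Every interval of the 47 lay within a factor of 2 in all 3 comparisons, as did those of 11400, 11586 and 11635 of all 11878 genes. The comparisons of CX3CL1 and of IFN-γ against no treatment share the same 3 untreated libraries.

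CDK6, a kinase that pairs with D-type cyclins, had the highest estimate with CX3CL1, both against no treatment and on average. It was at 58.9, 45.6 and 46.7 TPM untreated and at 77.9, 77.7 and 65.1 TPM with CX3CL1, all above. With IFN-γ it was at 56.4, 52.7 and 67.4 TPM and with CX3CL1+IFN-γ at 72.2, 55.9 and 70.5 TPM, which overlapped. The log2 change was 0.54 against no treatment (adjusted p = 0.085) and 0.35 ± 0.10 on average (adjusted p = 0.0978), neither called. With the replicate number as a block both were called (adjusted p = 0.0405 and 0.0472, over all alternatives 0.0381 to 0.511 and 0.0452 to 0.413). Same-numbered libraries deviated together for CX3CL1+IFN-γ and IFN-γ, where CDK6 was higher in 3 of 3 pairs, but not in every pair for CX3CL1 and no treatment. With the block CX3CL1+IFN-γ against IFN-γ again gave 0 calls among the 47 genes by limma, with 2 at an unadjusted p under 0.05 (0.8% of all genes were called). Without the block, the averaged change was called without untreated replicate 1 (0.41) or CX3CL1+IFN-γ replicate 2 (0.41), and the change against no treatment without untreated replicate 1 (0.66).

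Other genes with CX3CL1 were TK1, the thymidine kinase of S phase, and CCNE1. TK1 was at 67.7, 113 and 84.8 TPM untreated against 62.2, 69.7 and 75.3 TPM with CX3CL1, and at 67.1, 102 and 89.4 TPM with IFN-γ against 48.6, 84.5 and 77.7 TPM with both. Its averaged estimate was -0.32 with an interval from -0.66 to 0.03 (adjusted p = 0.508). CCNE1 was at 70.2, 67.5 and 62.1 TPM with CX3CL1 and at 69.8, 75.2 and 73.2 TPM with both agents, each time below its comparison group. Its averaged change was -0.16, with an interval from -0.29 to -0.04 (adjusted p = 0.249). FOXM1 had an estimate of -0.14 with CX3CL1 (-0.31 to 0.02).

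Counting genes whose 3 libraries lay all above or all below the other 3 gave 6 of 47 for IFN-γ against no treatment (12.8%, against 34.2% of all genes). Of these CCNE1 and MYBL2 were above, and RRM1, CCNE2, CCNB1 and CCNA2, the cyclin A2 gene, were below. For CX3CL1+IFN-γ against CX3CL1 there were 4 (8.51%, against 19.5%), MCM7, MYBL2, FOXM1 and PLK1, all above. For CX3CL1 against no treatment there were 6 (12.8%, against 11.2%), CDK6 above and CCNE1, FOXM1, PLK1, the phosphatase gene CDC25C and the checkpoint kinase gene BUB1B below. For CX3CL1+IFN-γ against IFN-γ there were 3 (6.38%, against 16.3%), CCNE1, CDC25A and MYBL2, all below. With 3 libraries on each side the smallest two-sided p that exact permutation allows is 0.1, so these counts carry no test.

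The effect of IFN-γ in the presence of CX3CL1 was not shown to differ from that in its absence for any of the 47 genes. The interaction gave 0 calls by limma among the 47 and 0 among all 11878 genes, a background of 0%, with 0 of the 47 and 273 of all genes at an unadjusted p under 0.05. The lowest unadjusted p among the 47 was 0.0806. The intervals of CCNE2 and NUSAP1, a spindle protein gene, reached beyond a factor of 2, as did those of 715 of all 11878 genes.

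The mean level of the mitotic genes differed between libraries of the same group. Relative to the untreated mean, the mean log2(TPM + 1) of the 23 genes of G2 phase and mitosis was -0.40 in IFN-γ replicate 1 and -0.45 in CX3CL1+IFN-γ replicate 1, with 22 of 23 genes below the untreated mean in each. The other 4 libraries with IFN-γ lay between -0.03 and 0.03. With CX3CL1 alone it was -0.24, -0.05 and -0.16 in replicates 1 to 3, and in untreated replicates 1 to 3 it was 0.00, -0.05 and 0.05, so untreated replicate 1 did not share the low value of the other replicate 1 libraries. The 23 genes of G1 and S phase, with FOXM1 and MYBL2 counted among them, spanned -0.14 (CX3CL1 replicate 3) to 0.11 (untreated replicate 2). In IFN-γ replicate 1 these 23 genes were at 0.05. In both groups with IFN-γ, replicate 1 was thus the library that lay below all untreated ones, and what the replicate numbers stand for is not given in the sources used here.

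**Figure D4:**
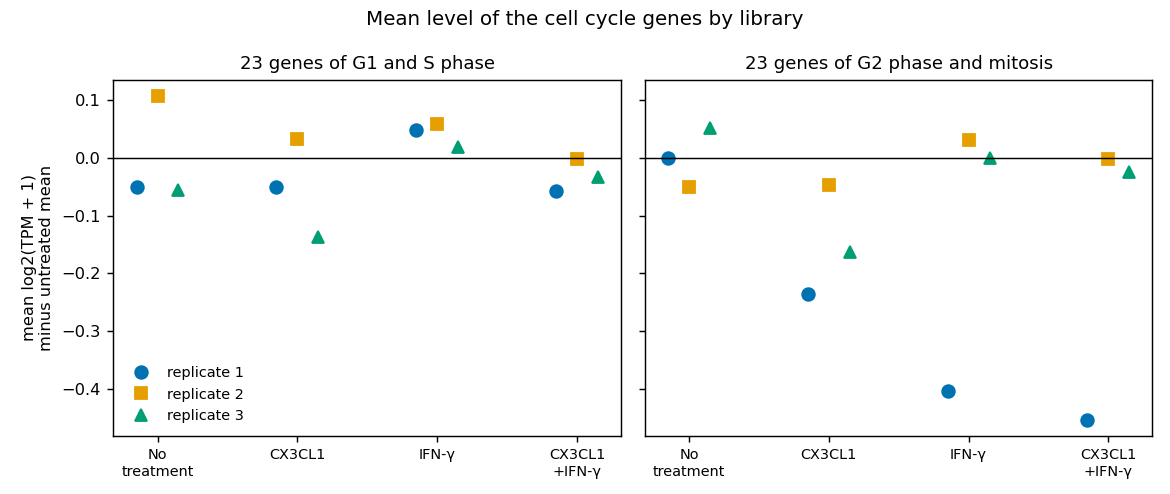
Mean log2(TPM + 1) over 23 genes of G1 and S phase (left) and 23 genes of G2 phase and mitosis (right) in each library, minus the mean of the untreated libraries (y axis), by group and replicate number. The left set includes the transcription factors FOXM1 and MYBL2. Replicate 1 of IFN-γ (-0.40) and of CX3CL1+IFN-γ (-0.45) stand below the others in the right panel.

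A test of the replicate number beside the 4 groups, added after seeing the data, called 6 of the 47 genes (12.8%, against 13.9% of all genes). CDKN1A, which encodes the kinase inhibitor p21, had the smallest adjusted p (0.000586, F test by limma). It was at 370, 249 and 279 TPM untreated, at 385, 236 and 292 TPM with CX3CL1, at 361, 226 and 266 TPM with IFN-γ and at 392, 214 and 253 TPM with both. In every group replicate 1 was the highest and replicate 2 the lowest. Without a block its averaged changes were -0.09 with IFN-γ (-0.47 to 0.29) and 0.00 with CX3CL1 (-0.38 to 0.38). These intervals include the spread between replicate numbers. For IFN-γ against no treatment the interval of CDKN1A was -0.62 to 0.46 without the block and -0.25 to 0.09 with it. The other 5 were CCNB2, TK1, KIF20A, CENPA and UBE2C, and for these replicate 1 had the lowest mean level of the 3 numbers, for example 46.5 TPM against 72.4 and 63.9 TPM for CCNB2. KIF20A is a motor of cytokinesis and CENPA the histone variant of centromeres.

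Other genes of the same processes were counted from further lists. Of 47 other replication genes tested, 8 were higher and 1 was lower with IFN-γ on average (19.1%, against 17.3% of all genes). POLE, the catalytic subunit of the leading strand polymerase, was at 30.0, 32.7 and 29.0 TPM untreated and at 43.2, 38.6 and 41.6 TPM with IFN-γ. It was at 29.7, 29.5 and 27.0 TPM with CX3CL1 and at 44.7, 37.1 and 39.8 TPM with both, so all 6 libraries with IFN-γ lay above all 6 without (1.36-fold, adjusted p = 0.00072). MCM10, a fork assembly factor, showed the same separation, between 51.4 and 57.5 TPM without IFN-γ and between 63.4 and 76.9 TPM with it (1.28-fold, adjusted p = 0.00237). GINS4, a subunit of the GINS complex of the helicase, was 1.2-fold higher (adjusted p = 0.0108). With CX3CL1, ORC1, the largest subunit of the origin recognition complex, was the 1 gene of 47 called on average (2.13%, against 2.54% of all genes), between 12.4 and 15.7 TPM without CX3CL1 and between 18.5 and 20.8 TPM with it (1.4-fold on average, adjusted p = 0.00148).

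Of 47 other mitotic genes tested, 2 were called with IFN-γ on average (4.26%, against 17.3% of all genes). None was called with CX3CL1. On average, 4 of the 47 had an unadjusted p under 0.05 with CX3CL1 by limma, against 1309 of all 11878 genes. With IFN-γ, MAD2L1, a spindle checkpoint gene, was lower by a log2 change of -0.38, and ESPL1, the gene for separase, was higher by 0.35. Of 19 tested genes for other kinase inhibitors, RB proteins and E2F factors, TFDP1, the dimer partner of E2F factors, was the 1 called (5.26%, against 17.3%), at -0.20. CDKN2A and CDKN2B were listed at 0 in all 12 libraries. Of 13 tested genes of other growth phases, 4 were called (30.8%, against 17.3%): CCNG1, the cyclin G1 gene, and SKP2 were lower, and MYC and FZR1 were higher. CCNG1 was at 303, 198 and 245 TPM untreated and at 137, 112 and 112 TPM with IFN-γ, and all 6 libraries with IFN-γ lay below all 6 without (0.51 times, adjusted p = 0.00020). It is also a p53 target, and of 14 p53 target genes tested 3 were higher with IFN-γ and 1, CCNG1, was lower (28.6%, against 17.3% of all genes). The highest of these were FAS, a death receptor gene (3.16-fold), and GADD45A, a stress response gene (2.14-fold). FAS was not particular to IFN-γ: with CX3CL1 it was 3.64-fold higher on average (adjusted p = 0.000726 by limma). It was the 1 p53 target of 14 called with CX3CL1 (7.14%, against 2.54% of all genes).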

How the data were processed

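RNA from 12 libraries of CT26 cells was sequenced by the authors after strand-specific mRNA library preparation, aligned to mm10 with STAR 2.7.3a in the VIPER pipeline and tested by them with DESeq2 1.22.1. The deposited values are TPM per gene symbol, scaled by the authors to 1000000 in each library. How counts became TPM, the gene annotation and the handling of reads shared by similar genes are not given in the sources used here. Gene counts were not analysed here. TPM hold no depth, so counting error is unknown and the spread of 3 replicates gives the precision. Groups were taken from the labels, and doses and time from the study's methods and legends.

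From the TPM, log2(TPM + 1) was computed and fitted in limma 3.58.1 under R 4.3.3, using an intensity trend in eBayes. The 11878 genes whose mean reached 0.2 TPM entered, with all 12 libraries in 1 fit, no block, and Benjamini-Hochberg adjustment over all genes in each comparison at 0.05. Changes on this scale are understated for low genes. The fit was tested on simulated libraries, drawn without any link between same-numbered ones. Of 200 genes changed by 0.5 on the log2 scale, it called 41 for IFN-γ against no treatment and 48 for CX3CL1+IFN-γ against CX3CL1. For the averaged IFN-γ effect it called 139 of 200, so changes of this size can be missed. The 7 comparisons were 2 for IFN-γ, 2 for CX3CL1, the average of each pair, and the interaction. Same-numbered libraries deviated together from their group means across genes, with correlations of 0.429, 0.460 and 0.220 (IFN-γ and no treatment), 0.351, 0.353 and 0.428 (CX3CL1+IFN-γ and CX3CL1) and 0.630, 0.635 and 0.649 (CX3CL1+IFN-γ and IFN-γ). Genes whose call the block changed are named, and the adjusted p with the block is given for some of them. Replicates of a group correlated between 0.984 and 0.996, and none were identical.

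As alternatives, the pseudocount was set to 0.1, the filter was dropped or raised to 1 TPM, values were rescaled by median ratios or by quantiles, the intensity trend was dropped, the replicate block was added, the fit was restricted to the libraries compared, and each library was left out in turn. Leaving out the 4 libraries of a replicate number was added after seeing the data. The genes and lists were chosen with earlier results of these data known. Values by library are given for called genes and for examples of each role, for some of these in part of the groups only. They are also given for CDT1, RRM1, CCNE2, CCNB2, AURKA, CDK6 and TK1. These genes were not called without a block and were not among the planned examples. Of the other lists, counts and up to 3 called genes of smallest adjusted p are named, with more named after their values were seen (KRT18, COL1A1, PDGFRB, PECAM1, CDH5, LYZ2, ITGAM, MAD2L1, ESPL1, FZR1, CDKN2A, CDKN2B, EPCAM, CD3E, PTPRC). Promoter sequences came from RefSeq on GRCm38.p6, the assembly that mm10 stands for. Tables were prepared in Python 3.11.15 with pandas 2.3.3. The values of some genes used as checks are not reported here.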

Additional observations from a re-analysis of the deposited data

How the results depend on the processing

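Counts are of the 47 genes called. No result reversed its direction between calls. With the replicate block the counts were 2 for IFN-γ against no treatment and 2 for CX3CL1+IFN-γ against CX3CL1, 7 for the averaged IFN-γ effect, 1 for CX3CL1 against no treatment and 1 for the averaged CX3CL1 effect, against 0, 0, 3, 0 and 0 without it, and it changed no other call of the 47 genes. The gene gained with CX3CL1 was CDK6 (log2 0.54 and 0.35). Same-numbered libraries of CX3CL1 and no treatment correlated at 0.387, 0.005 and 0.301, and untreated replicate 2 was closer to CX3CL1 replicate 3 (0.253), so not every pair of numbers held there. With only the libraries compared, IFN-γ against no treatment gave 1 (CCNE2). Median-ratio scaling gave 1 (CDK6) for CX3CL1 against no treatment, and in the averaged IFN-γ effect it and quantile normalization each ended the calls of MCM7 and MYBL2 and called CCNE2 lower, and without the intensity trend MCM7 was not called. Leaving out single libraries gave 0 to 2 for IFN-γ against no treatment, 1 to 4 for the averaged IFN-γ effect, 0 to 1 for CX3CL1 against no treatment and 0 to 1 for the averaged CX3CL1 effect. Without replicate 2 of every group IFN-γ against no treatment gave 2, and the averaged IFN-γ effect gave 1 without replicate 1 of every group and 0 without replicate 3. FOXM1 was called in 20 of 22 alternatives (adjusted p 0.00238 to 0.276), MYBL2 in 9 (0.00807 to 0.317) and MCM7 in 7 (0.0177 to 0.312). The cause was not tested. Over all genes, the replicate block gave 1929, 1369, 3442, 455, 95, 628 and 52 calls, in the order IFN-γ against no treatment, CX3CL1+IFN-γ against CX3CL1, averaged IFN-γ, CX3CL1 against no treatment, CX3CL1+IFN-γ against IFN-γ, averaged CX3CL1 and interaction, against 932, 558, 2059, 232, 43, 302 and 0. With only the libraries compared, CX3CL1+IFN-γ against CX3CL1 gave 344 and CX3CL1+IFN-γ against IFN-γ 20, no filter gave 28 for the latter, and quantile normalization gave 1 for the interaction. The depth is unknown. Where a printed interval included 0, changes inside it could not be told from none in the fit without a block.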
